A study of Rattus norvegicus with 24 samples.

Results

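The genes of the rat major histocompatibility complex (MHC) and of antigen processing were described in lung tissue of ventilated rats with or without brain damage. Members were the features of the value table whose platform symbol started with RT1-, the prefix of rat MHC genes, together with 20 listed genes of peptide generation, loading, class II processing and costimulation. This gave 55 members among 19239 features. There were 37 RT1 features, of which 27 were class I and 10 class II, and 18 of the 20 listed genes, since Psme2 and Nlrc5 had no named feature. The class of an RT1 feature was read from its symbol. RT1-M10-1, counted in class I, is a long non-coding RNA in the current annotation.

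Each array held right lung tissue of 1 adult male Wistar rat, and there were 4 groups of 6 rats. All rats were anaesthetised with ketamine and xylazine, kept under ketamine, and ventilated for 6 h. The groups were BD HT (brain damage and high tidal volume, 12 mL/kg, at a low positive end-expiratory pressure, PEEP), BD best PEEP (brain damage and 6 mL/kg at the PEEP of lowest elastance after lung recruitment), NBD HT and NBD best PEEP, which had the same ventilation without brain damage. Brain damage was made by inflating a balloon in the epidural space through a burr hole, and NBD rats had no trepanation, so injury and surgery cannot be told apart. Of the 6 BD HT rats, 2 were non-survivors whose identity the labels do not give. Ventilation differed between HT and best PEEP in tidal volume, PEEP, lung recruitment and respiratory rate, and their effects cannot be told apart. The rate was set lower in HT to hold the carbon dioxide pressure.

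MHC class I molecules show peptides from inside the cell to CD8+ T cells. Their heavy chain pairs with beta-2-microglobulin (B2m), and the peptides are cut by the proteasome, moved into the endoplasmic reticulum by the transporter Tap1-Tap2 and loaded with the help of tapasin (Tapbp). Class II molecules are pairs of an alpha and a beta chain that show peptides from endosomes to CD4+ T cells, guided by the invariant chain Cd74 and edited by RT1-DM. In the lung, class II is carried by dendritic cells, macrophages, B cells and also by alveolar type II cells. Transcription of class II genes depends on Ciita, whereas interferon gamma raises both classes. Many RT1 genes are near-identical copies that differ between rat haplotypes, so how the signal is divided among copies is uncertain.

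The promoters of 47 of the 55 members were found in RefSeq's table for the assembly GRCr8, as windows of 250 bases before and 50 bases after the start that the table uses for each gene. In 3 of them this start lay more than 1000 bases inside the gene as annotated on that assembly, by 21716 bases for Cd86, 4800 for RT1-T18 and 1438 for Cd80, so these windows belong to other starts than the outermost one. They were searched on both strands for 4 short motifs, whose matches may overlap. The interferon response element core, GAAANNGAA, was held by 9.50% of all 27457 promoters and by 4 of the 5 matched promoters of the class I light chain and loading group, those of B2m, Tap1, Tap2 and Tapbp. The Y box of MHC promoters, CTGATTGG, was held by 3.55% of all promoters, by 7 of 9 class II promoters and by 8 of 24 class I promoters. The NF-kappaB element GGGNNTTCC was held by 5.97% of all promoters and by 12 of the 47 members' promoters, among them those of 7 class I genes and Cd83. The STAT element TTCNNNGAA was held by 8.68% of all promoters and by 3 members' promoters, those of Psmb8, Cd80 and RT1-M3-1. A match describes letters only.

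Shown are the promoters of Tap1 and Tapbp, which were called in a comparison, those of RT1-A1 and RT1-Bb, which were low in the same rats, and that of RT1-Da, a core class II gene. Each runs 5′ to 3′ along its gene, and capitals mark motif matches.
Tap1, GRCr8 chr20:4668494-4668793, minus strand: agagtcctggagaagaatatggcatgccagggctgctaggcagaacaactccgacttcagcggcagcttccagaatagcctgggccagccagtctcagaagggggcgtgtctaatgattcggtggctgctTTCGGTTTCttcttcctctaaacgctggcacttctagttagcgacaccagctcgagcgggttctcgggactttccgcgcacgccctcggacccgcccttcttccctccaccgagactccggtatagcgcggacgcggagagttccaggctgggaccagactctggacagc
Tapbp, GRCr8 chr20:4967828-4968127, minus strand: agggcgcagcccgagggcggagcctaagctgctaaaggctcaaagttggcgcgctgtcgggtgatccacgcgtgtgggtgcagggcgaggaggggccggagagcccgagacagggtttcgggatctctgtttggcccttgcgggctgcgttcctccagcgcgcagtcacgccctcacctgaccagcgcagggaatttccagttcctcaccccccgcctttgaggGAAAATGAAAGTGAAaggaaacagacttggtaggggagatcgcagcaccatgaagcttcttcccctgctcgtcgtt
RT1-A1, GRCr8 chr20:4906959-4907258, plus strand: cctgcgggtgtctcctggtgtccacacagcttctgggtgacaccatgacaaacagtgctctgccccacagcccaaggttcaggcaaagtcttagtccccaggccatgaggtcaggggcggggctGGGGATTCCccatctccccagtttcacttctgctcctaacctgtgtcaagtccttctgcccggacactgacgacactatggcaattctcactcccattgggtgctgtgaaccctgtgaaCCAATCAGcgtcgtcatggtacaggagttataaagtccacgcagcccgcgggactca
RT1-Bb, GRCr8 chr20:4604069-4604368, minus strand: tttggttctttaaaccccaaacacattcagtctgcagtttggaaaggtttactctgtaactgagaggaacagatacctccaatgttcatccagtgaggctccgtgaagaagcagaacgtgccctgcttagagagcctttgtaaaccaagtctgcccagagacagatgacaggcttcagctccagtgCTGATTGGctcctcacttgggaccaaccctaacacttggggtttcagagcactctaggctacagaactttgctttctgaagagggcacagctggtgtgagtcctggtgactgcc
RT1-Da, GRCr8 chr20:4515165-4515464, plus strand: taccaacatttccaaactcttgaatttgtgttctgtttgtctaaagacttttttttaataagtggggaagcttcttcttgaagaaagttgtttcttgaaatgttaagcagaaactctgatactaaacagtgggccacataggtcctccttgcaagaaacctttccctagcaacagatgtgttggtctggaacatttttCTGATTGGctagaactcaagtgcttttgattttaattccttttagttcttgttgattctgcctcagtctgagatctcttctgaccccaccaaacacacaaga
In Tap1 the capitals are the reverse complement of the interferon response element core. In Tapbp they are a pair of overlapping matches to it. RT1-A1 holds an NF-kappaB element match and the Y box in its reverse orientation, and RT1-Bb and RT1-Da hold the Y box.

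The arrays were scaled to the same distribution, with log2 values between 5.73 and 14.53 and a median of 9.18. Rat 12 of NBD HT and rat 16 of BD best PEEP stood apart, with mean correlations to their own group of 0.951 and 0.955, against 0.969 to 0.988 in the other rats. Mean skeletal muscle marker levels were 11.92 in rat 16 and at most 8.60 in the other BD best PEEP rats. Differences below are in mean log2 intensity and were tested with limma over all features, at an adjusted p of 0.05.

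In BD rats, 4 members rose under HT compared to best PEEP and 0 fell. They were the peptide transporter subunit Tap1, the loading factor Tapbp, and the costimulatory molecules Cd40 and Cd86. None of the 27 class I features and none of the 10 class II features was called by limma. At an unadjusted p under 0.05 there were 4 (14.8%) and 0 of them, beside 21.0% of all features. The 4 called members are 7.27% of the 55. Among all features, 2.85% were called higher and 2.82% lower, and 41 of the 55 members lay above 0, with a median difference of 0.09, against 46.4% of all features and a median of -0.01. With single rats left out, 36 to 46 members lay above 0. In whole lung, a change in the number of cells that carry a transcript and a change in transcript per cell cannot be told apart.

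Tap1 ranged in BD HT rats from 11.13 to 12.26 (median 11.76), against 10.54 to 11.25 (median 10.92) in BD best PEEP rats. All but 1 of the BD HT rats lay above every BD best PEEP rat. The difference was 0.85 (SE 0.213, adjusted p = 0.0217), a 1.80-fold higher intensity. Tapbp, which bridges the transporter and the empty class I molecule, ranged from 10.52 to 11.51 (median 11.15) in BD HT and from 10.12 to 10.83 (median 10.38) in BD best PEEP. Here too 5 of 6 BD HT rats were above all BD best PEEP rats, and the difference was 0.68 (SE 0.194, adjusted p = 0.0411). The Tap1 call was lost without rat 11 or 26 of BD HT or rat 20 of BD best PEEP, with an adjusted p of at most 0.0584, and the Tapbp call without any of 7 rats, 4 of BD HT (11, 26, 24 and 22) and 3 of BD best PEEP (20, 16 and 14), with at most 0.0951.

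The other members of the loading group were not called. Tap2, the partner of Tap1, ranged from 9.67 to 10.89 (median 10.27) in BD HT and from 9.36 to 10.42 (median 10.06) in BD best PEEP, and differed by 0.30 (SE 0.213, adjusted p = 0.446). The groups overlapped widely. B2m ranged from 13.83 to 13.93 (median 13.92) in BD HT and from 13.83 to 13.97 (median 13.90) in BD best PEEP, near the top of the scale, where the arrays hold few values and several rats had identical ones (difference -0.0020, adjusted p = 0.987). The chaperone Calr differed by 0.04, the disulfide isomerase Pdia3 by -0.04 and the peptide trimming enzyme Erap1 by -0.01.

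The immunoproteasome, whose catalytic subunits replace those of the constitutive proteasome and favour class I ligands, had 0 of 4 members called, and all 4 lay above 0. Psmb8 ranged from 10.42 to 11.91 (median 11.38) in BD HT and from 9.98 to 11.10 (median 10.41) in BD best PEEP. In 4 of the 6 BD HT rats it lay above every BD best PEEP rat, and the difference of 0.80 had an SE of 0.247 and an adjusted p of 0.0588. Psmb9 ranged from 11.01 to 12.56 (median 12.02) in BD HT and from 10.72 to 12.08 (median 11.56) in BD best PEEP, with a difference of 0.38 (SE 0.258, adjusted p = 0.417). Here 3 of the 6 BD HT rats lay above all BD best PEEP rats. The third catalytic subunit, Psmb10, differed by 0.49 (adjusted p = 0.0565) and the activator subunit Psme1 by 0.15 (adjusted p = 0.527).

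Among the class I features, 19 of 27 lay above 0 in this comparison (18 to 23 with single rats left out), with differences between -0.20 and 0.65. RT1-A2, of the classical RT1-A region, ranged from 10.57 to 11.50 (median 11.17) in BD HT and from 10.38 to 11.25 (median 10.88) in BD best PEEP. Its difference of 0.27 (SE 0.213, adjusted p = 0.499) was not beyond the spread between rats. RT1-N3 had the largest difference of the class, 0.65 (adjusted p = 0.0507), followed by RT1-S3 with 0.45 and RT1-T24-3 with 0.40. The features RT1-M1-2, RT1-M1-4, RT1-M10-1, RT1-M4 and RT1-M5 lay within 0.10 of 0. They were dim, with BD HT medians from 7.49 to 8.23, below the array median of 9.18, and are part of the class I counts.

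Of the 10 class II features, 0 was called, 7 lay above 0 and 3 below, with a median of 0.05. This direction rested on single rats, since with 1 rat left out 3 to 8 lay above 0, with medians from -0.07 to 0.10. There were 3 without BD HT rat 24, 4 without BD best PEEP rat 16, which stood apart, and 5 without BD HT rat 22. RT1-Da, the alpha chain of the RT1-D molecule, ranged from 12.16 to 13.20 (median 12.53) in BD HT and from 12.33 to 12.89 (median 12.53) in BD best PEEP, a difference of 0.05 (SE 0.195, adjusted p = 0.918). RT1-Ba, the alpha chain of the RT1-B molecule, ranged from 11.02 to 11.79 (median 11.19) in BD HT and from 11.25 to 11.51 (median 11.36) in BD best PEEP, a difference of -0.10 (SE 0.146, adjusted p = 0.744). In both genes the BD HT rats spread more widely than the BD best PEEP rats and enclosed them. Cd74 ranged from 13.71 to 14.03 (median 13.83) in BD HT and from 13.60 to 13.97 (median 13.86) in BD best PEEP, a difference of 0.01 (SE 0.0719, adjusted p = 0.977). Like B2m it lies near the top of the scale, and the 24 rats held 11 distinct values of Cd74 and 8 of B2m. Ciita ranged from 9.46 to 10.05 (median 9.61) in BD HT and from 9.15 to 9.90 (median 9.53) in BD best PEEP, a difference of 0.16 (SE 0.157, adjusted p = 0.597). The groups overlapped in each of these genes. The cathepsin Ctss, which trims the invariant chain, did not pass the test either.

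**Figure D1:**
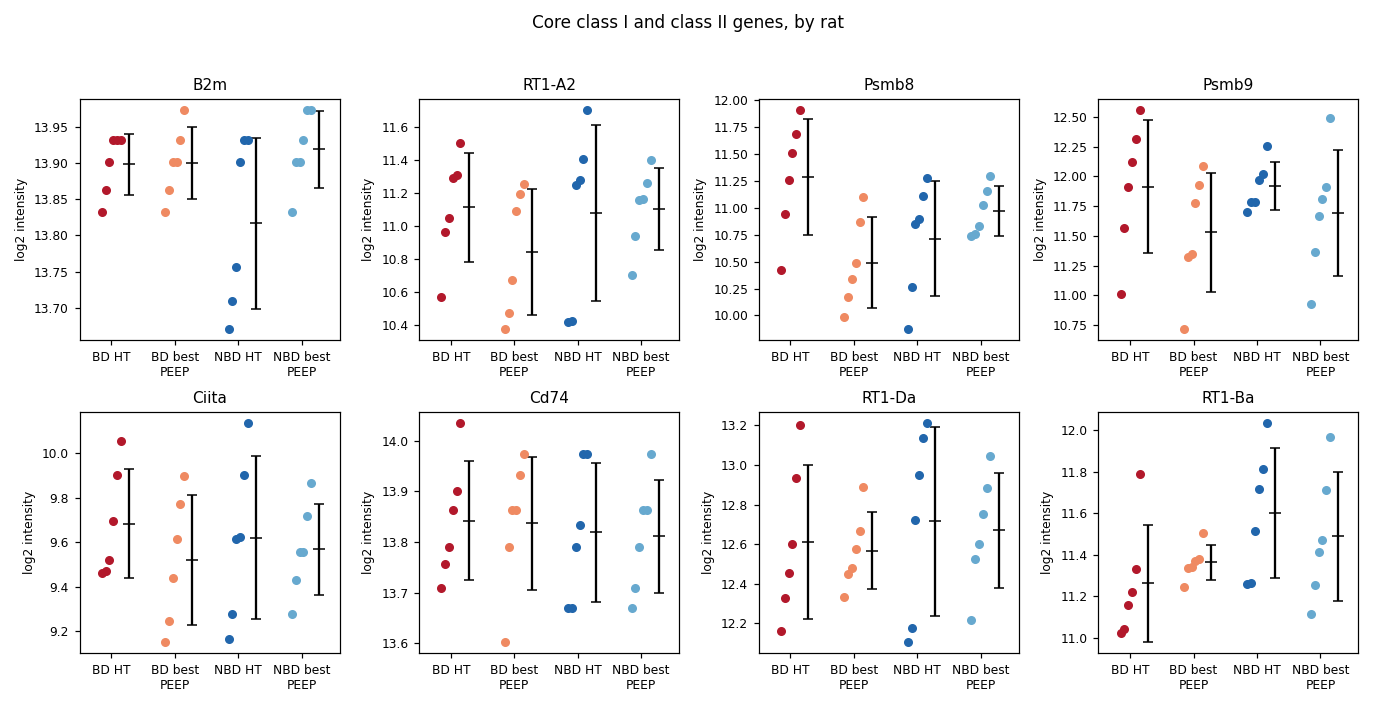
Log2 intensity of B2m, RT1-A2, Psmb8, Psmb9, Ciita, Cd74, RT1-Da and RT1-Ba in each rat (points) of the 4 groups, with the mean and SD of each group (black). The vertical axes differ between panels, and in each panel the BD HT rats overlap the BD best PEEP rats.

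All 4 costimulatory members, which give the T cell the signal beside the MHC molecule, lay above 0 in BD. Cd86, a ligand of Cd28 on T cells, ranged from 9.11 to 9.67 (median 9.33) in BD HT and from 8.51 to 9.15 (median 8.82) in BD best PEEP, a difference of 0.56 (SE 0.136, adjusted p = 0.0178). Only the lowest BD HT rat lay within the range of BD best PEEP. This call was kept when any 1 of the 24 rats was left out, with an adjusted p between 0.00614 and 0.0465. Cd40, the receptor on antigen presenting cells for the T cell ligand Cd40lg, ranged from 10.16 to 11.41 (median 10.54) in BD HT and from 9.63 to 10.05 (median 9.92) in BD best PEEP, a difference of 0.74 (SE 0.186, adjusted p = 0.0217). It was the single member whose groups did not overlap, which was the case for 1.41% of all features in the higher direction, and its call was lost without rat 11 of BD HT (adjusted p = 0.0505). Cd80, the other ligand of Cd28, differed by 0.47 (adjusted p = 0.0756) and Cd83, a marker of mature dendritic cells, by 0.39 (adjusted p = 0.266). When each of the 15 pairs of BD HT rats was left out, because 2 were non-survivors, the calls of Tap1 and Tapbp were lost in 10 pairs each and those of Cd86 and Cd40 in 8 each.

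**Figure D2:**
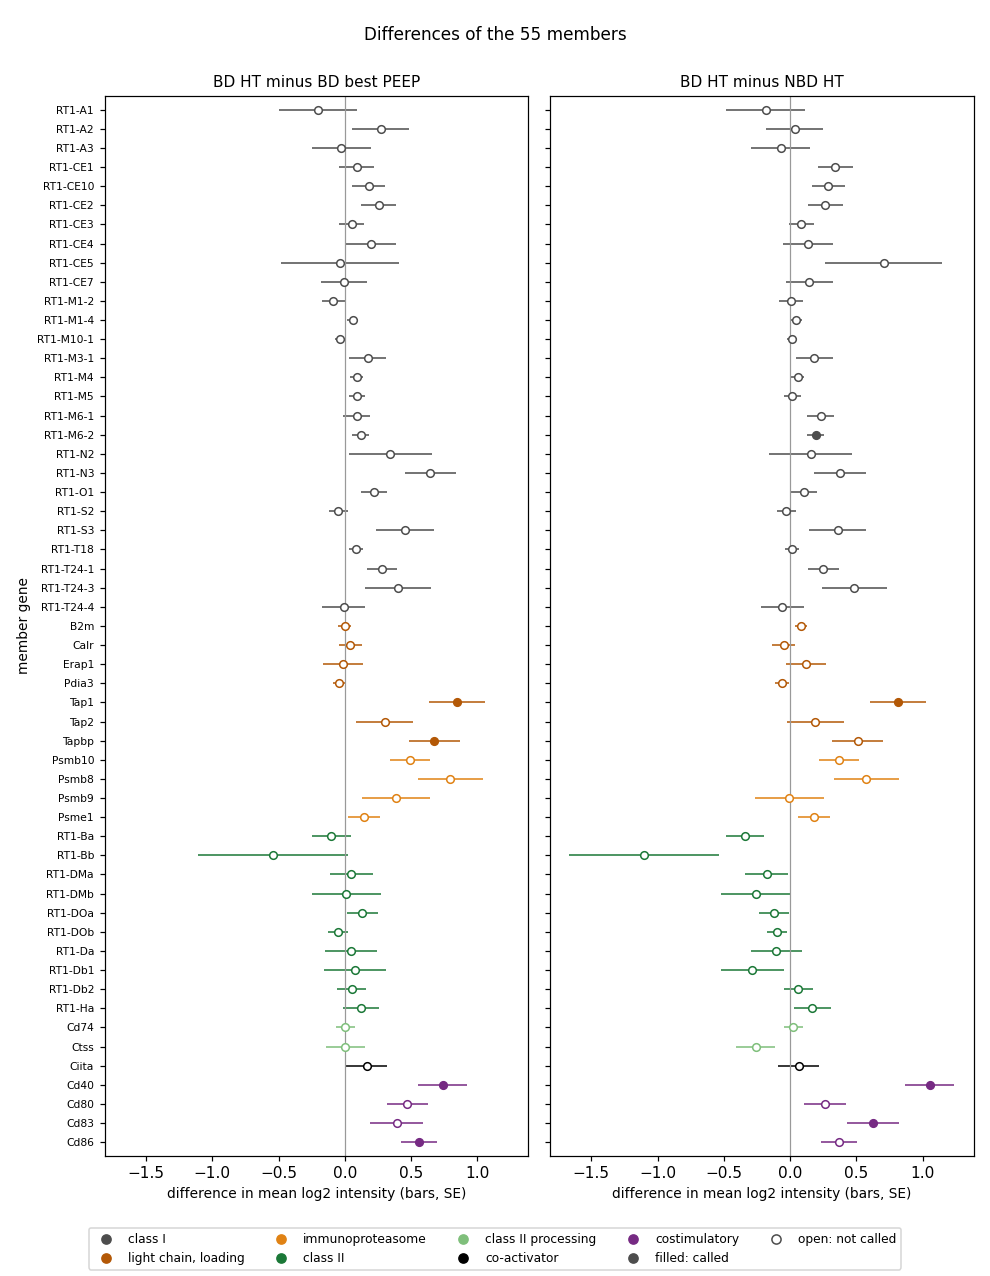
Difference in mean log2 intensity of each of the 55 members, with SE, for BD HT minus BD best PEEP (left) and BD HT minus NBD HT (right), with filled points for called members. Loading, immunoproteasome and costimulatory genes lie mostly to the right of 0, whereas class II genes lie around 0 on the left panel and 8 of 10 lie below 0 on the right.

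Under HT, BD and NBD rats were compared to see what brain damage added. Here 4 members rose in BD and 0 fell, a share of 7.27%, near the 5.90% of all features called higher, and 8.50% of all features were called lower. The members were Cd40, Tap1, Cd83 and the non-classical class I gene RT1-M6-2. Again 0 of the 10 class II features was called, with 1 (10%) at an unadjusted p under 0.05, beside 27.8% of all features.

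Cd40 ranged from 10.16 to 11.41 (median 10.54) in BD HT and from 9.24 to 10.13 (median 9.48) in NBD HT, a difference of 1.05 (SE 0.186, adjusted p = 0.000614). The groups did not overlap, as in 1.85% of all features in the higher direction. Tap1 ranged from 11.13 to 12.26 (median 11.76) in BD HT and from 10.51 to 11.48 (median 10.97) in NBD HT, and the difference was 0.82 (SE 0.213, adjusted p = 0.0124). In 5 of the 6 BD HT rats Tap1 lay above all NBD HT rats. Both calls were kept when any 1 rat was left out. Over the 15 pairs of BD HT rats left out, the call of Cd40 was lost in 0, that of Tap1 in 7, that of Cd83 in 12 and that of RT1-M6-2 in 10.

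Cd83 ranged from 10.24 to 10.88 (median 10.52) in BD HT and from 9.39 to 10.58 (median 9.72) in NBD HT, a difference of 0.63 (SE 0.198, adjusted p = 0.0365). The overlap came from the 2 highest NBD HT rats. RT1-M6-2 ranged from 8.59 to 9.05 (median 8.87) in BD HT and from 8.59 to 8.79 (median 8.64) in NBD HT, a difference of 0.19 (SE 0.0641, adjusted p = 0.0440), the smallest among the called members. Both groups reached down to the same level. The Cd83 call was lost without any of 7 rats, NBD HT 33, 19, 13 and 10 and BD HT 28, 24 and 22, and the RT1-M6-2 call without any of 12 rats, NBD HT 34, 33, 19, 13 and 10, NBD best PEEP 30 and 29, BD HT 11, 26, 24 and 22 and BD best PEEP 20, with adjusted p values of at most 0.0949 and 0.116. Without rat 12 of NBD HT, which stood apart, 10 members rose (18.2%), beside 6.67% of all features called higher and 16.3% called in either direction. Without it and rat 16 of BD best PEEP 9 rose (16.4%), beside 6.60% and 16.5%.

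**Figure D3:**
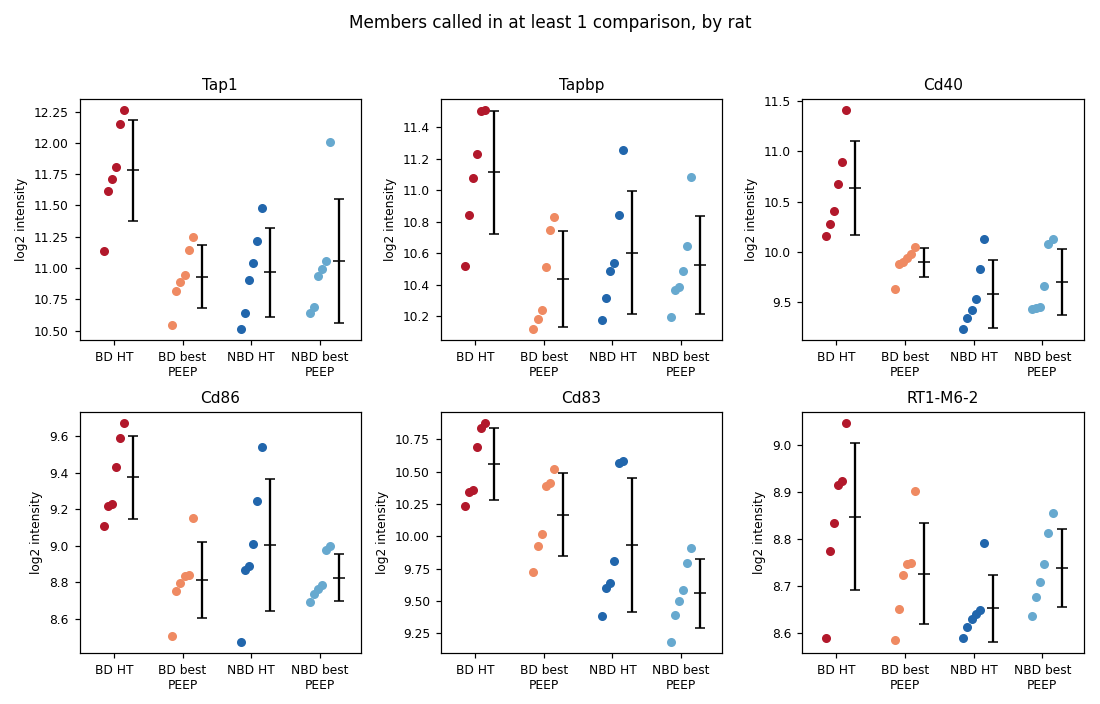
Log2 intensity of the 6 members called in at least 1 comparison, in each rat (points), with the mean and SD of each group (black). For Cd40 all 6 BD HT rats lie above the 6 rats of BD best PEEP and of NBD HT, and for Tap1 and Cd86 1 BD HT rat overlaps BD best PEEP.

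In the same comparison the classes were counted by direction. Class II features varied together across rats, as given below, so such a count is not one of separate observations. Of the 27 class I features 23 lay above 0 (median 0.14), whereas of the 10 class II features 2 lay above 0 and 8 below (median -0.15), beside a median of -0.01 over all features. With single rats left out, 20 to 26 class I features lay above 0, with medians from 0.06 without BD HT rat 11 to 0.21 without BD HT rat 37, and beyond 1.5 times also without BD HT rat 26 and NBD HT rats 34 and 19. For class II the count was 2 each time, and the median ran from -0.26 without BD HT rat 24 to -0.06 without NBD HT rat 12, which stood apart, and moved beyond 1.5 times also without BD HT rat 26 and NBD HT rats 19 and 10. RT1-A2 ranged from 10.57 to 11.50 (median 11.17) in BD HT and from 10.42 to 11.70 (median 11.26) in NBD HT, a difference of 0.03 (SE 0.213, adjusted p = 0.946). RT1-Ba ranged from 11.02 to 11.79 (median 11.19) in BD HT and from 11.26 to 12.03 (median 11.62) in NBD HT, a difference of -0.34 (SE 0.146, adjusted p = 0.129). In 4 of the 6 BD HT rats RT1-Ba lay below all NBD HT rats, whereas the RT1-A2 values of BD HT lay within those of NBD HT. RT1-Da differed by -0.10 (adjusted p = 0.796), Cd74 by 0.02 (adjusted p = 0.88) and Ciita by 0.06 (adjusted p = 0.849). None of these differences was called with all 24 rats, and without BD HT rat 24 RT1-Ba was called lower. B2m ranged from 13.83 to 13.93 (median 13.92) in BD HT and from 13.67 to 13.93 (median 13.83) in NBD HT and differed by 0.08 (adjusted p = 0.259). Tap2 differed by 0.19 (adjusted p = 0.622), Psmb8 by 0.58 (adjusted p = 0.127) and Cd86 by 0.37 (adjusted p = 0.0715). Psmb9 had nearly the same mean in both groups (adjusted p = 0.994).

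In NBD rats, HT was compared with best PEEP without brain damage. No member and 0% of all features were called, and the smallest adjusted p of a member was 0.261. At an unadjusted p under 0.05 there were 6 members (10.9%), beside 16.3% of all features. Class I had 8 of 27 features above 0 (median -0.06), whereas all 10 class II features lay above 0 (median 0.17, range 0.05 to 0.99), against 56.0% of all features and a median of 0.02. The upper end was RT1-Bb, with 0.99. The NBD HT rats also entered the comparison of BD HT with NBD HT, with the opposite sign. The directions of the classes in these comparisons are therefore not independent. Without NBD HT rat 12, which stood apart, 8 of 10 class II features lay above 0 (median 0.10) and 5 of 27 class I features (median -0.10), and without NBD best PEEP rat 30 there were 11 class I features (median -0.03). All 11 B cell markers lay above 0 in the same comparison (median 0.22, and 0.12 without rat 12), with 0 called. Their mean levels ran from 8.69 to 9.85 (median 9.18) in NBD HT and from 8.80 to 9.28 (median 8.95) in NBD best PEEP, with overlap. Of 13 T cell markers 10 lay above 0, and 5 without rat 12. Of dendritic cell markers 8 of 11 lay above 0, and of alveolar type II markers 3 of 9. Of monocyte and macrophage markers 4 of 9 did, and of alveolar macrophage markers 2 of 8. In BD over NBD under best PEEP, all 11 B cell markers and 5 of 10 class II features lay above 0. Under HT these counts were 9 and 2. The part of these markers in the class II differences was not tested. Tap1 ranged from 10.51 to 11.48 in NBD HT and from 10.64 to 12.01 in NBD best PEEP, a difference of -0.09 (adjusted p = 0.864). Cd40 differed by -0.12 (adjusted p = 0.776), Tapbp by 0.08 (adjusted p = 0.875) and Cd86 by 0.18 (adjusted p = 0.513).

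Under best PEEP, BD and NBD rats did not differ by the test in any member, while 0.208% of all features were called higher and 0.530% lower. The smallest adjusted p of a member was 0.161, and 6 members (10.9%) had an unadjusted p under 0.05, beside 11.59% of all features. Cd83 ranged from 9.72 to 10.52 (median 10.21) in BD best PEEP and from 9.18 to 9.91 (median 9.54) in NBD best PEEP, a difference of 0.60 (SE 0.198, adjusted p = 0.186). In 5 of the 6 BD rats it lay above all NBD rats. Psmb8 ranged from 9.98 to 11.10 (median 10.41) in BD best PEEP and from 10.73 to 11.30 (median 10.93) in NBD best PEEP, a difference of -0.48 (SE 0.247, adjusted p = 0.469). Here 4 BD rats lay below all NBD rats.

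Whether the ventilation difference changed with brain damage was tested by its interaction. This test called 0 members and 0.0104% of all features. An unadjusted p under 0.05 was found in 10 members (18.2%), beside 13.7% of all features. The smallest adjusted p of a member was that of Cd40, 0.171, for an interaction of 0.86 (SE 0.263). The interaction was 0.94 for Tap1 (SE 0.302, adjusted p = 0.188) and 1.05 for Psmb8 (SE 0.349, adjusted p = 0.202). For Cd86, Tapbp and RT1-N3 it was 0.38, 0.60 and 0.84. A larger ventilation difference in BD than in NBD rats was thus not shown for any member, although 38 of 55 interactions lay above 0. With 1 group of BD HT rats in both of the comparisons that gave calls, these comparisons share 6 arrays.

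The members differed between rats more than most genes. The SD within groups had a median of 0.269 over the members and of 0.157 over all features, and in 20 of the 55 members (36.4%) it lay above the 90th percentile of all features, among them 9 of 27 class I and 4 of 10 class II features. In some RT1 genes, rats of several groups lay apart from the others at low values. These genes were chosen after their values were seen, so their values are a description.

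RT1-Bb, the beta chain of the RT1-B molecule, lay between 9.68 and 10.32 in 6 rats and between 11.43 and 12.81 in the other 18. The low rats were 37, 26 and 22 of BD HT, 20 of BD best PEEP, and 27 and 5 of NBD best PEEP, with 0 from NBD HT. Its group medians were 11.13 in BD HT, 11.87 in BD best PEEP, 12.12 in NBD HT and 11.93 in NBD best PEEP. HT minus best PEEP was -0.54 in BD and 0.99 in NBD, and BD minus NBD was -1.10 under HT and 0.43 under best PEEP, each with an SE of 0.563 and not called. The same 6 rats were the 6 lowest in RT1-A1 (up to 10.28) and the 6 lowest in RT1-A3 (up to 10.60), both class I genes of the RT1-A region, although no such gap set them apart there and neither gene was called in any comparison. They included 5 of the 6 lowest in the class II gene RT1-Db1 and 4 of the 6 lowest in Psmb9 and in Tap2. They included 0 of the 6 lowest in RT1-Da and in Psmb8, and 1 in Tap1.

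A different set of rats was low in RT1-CE5, a class I gene of the RT1-C/E region. It lay between 9.28 and 9.51 in 4 rats, 28 of BD HT, 14 of BD best PEEP, and 19 and 10 of NBD HT, and between 10.57 and 11.99 in the other 20. Of these, 28, 14 and 19 were also the 3 lowest in RT1-N2, between 8.68 and 8.83, against 9.34 to 10.93 in the other 21 rats. Of the 4 rats low in RT1-CE5, 3 were among the 4 lowest in RT1-T24-3, in RT1-CE1 and in Psmb8, and 0 among the 4 lowest in RT1-A1 or B2m. The differences of RT1-CE5 between groups ran from -0.97 to 0.71 with an SE of 0.442, and none was called.

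**Figure D4:**
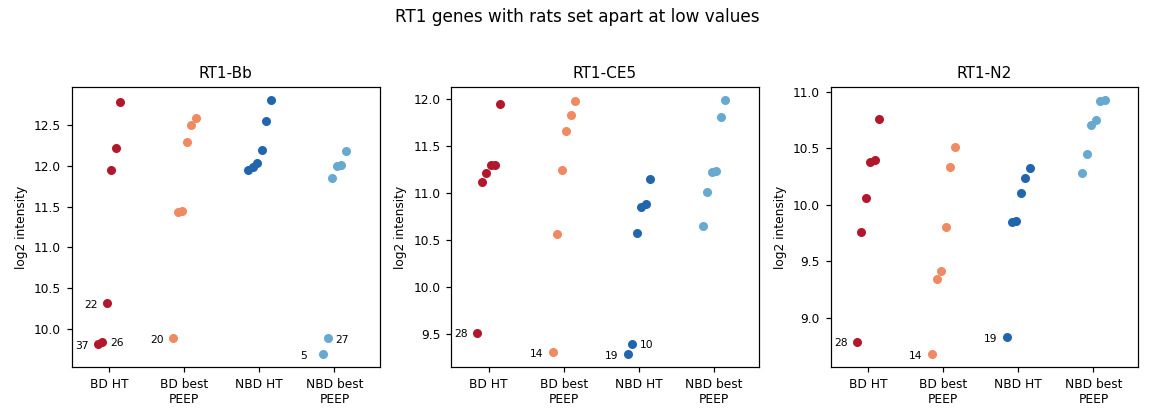
Log2 intensity of RT1-Bb, RT1-CE5 and RT1-N2 in each rat (points) by group, with the animal number beside the rats below the widest gap. The low rats come from 3 of the 4 groups for each gene, and rats 28, 14 and 19 are low in both RT1-CE5 and RT1-N2.

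Deviations from the group means were correlated across the 24 rats as a description, leaving out the 3 genes with a gap. The 36 pairs of class II genes had a median Pearson's r of 0.73 (range 0.34 to 0.93) and were all above 0. RT1-Bb, left out of these pairs, had a median r of 0.19 with the other 9 class II genes (range -0.12 to 0.66, 8 above 0). The 300 class I pairs had a median of 0.32 (range -0.64 to 0.94), and 225 pairs of a class I with a class II gene a median of -0.06. Within class I, RT1-A1 varied with RT1-A3 (r = 0.94) and with Tap2 (r = 0.92), and oppositely to RT1-A2 (r = -0.47). Tap1 varied with Tapbp (r = 0.79), Tap2 (r = 0.82) and Cd40 (r = 0.71), and hardly with Ciita (r = 0.12). These pairs were chosen after their values were seen and were not tested.

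Of 4 planned relations 2 could be computed, since those with Tap1 and with B2m needed Nlrc5, which had no named feature. Ciita and Cd74 were related across the 24 rats after removal of group means, with Pearson's r of 0.81 (two-sided permutation p = 3e-05, adjusted over the 2 relations p = 6e-05) and Spearman's rho of 0.81 (permutation p = 2e-05, adjusted p = 4e-05). Without the 2 rats farthest in Ciita r was 0.77, and within groups it was 0.95 in BD HT, 0.76 in BD best PEEP, 0.97 in NBD HT and 0.39 in NBD best PEEP. Cd74 held few distinct values, as given above. Psmb8 and Psmb9, which act in the same particle, were not related by the test, with r of -0.24 (permutation p = 0.258, adjusted p = 0.258) and rho of -0.23 (permutation p = 0.29, adjusted p = 0.29). Without the 2 rats farthest in Psmb8 r was -0.31, and within groups its sign varied, with -0.19 in BD HT, -0.74 in BD best PEEP, 0.63 in NBD HT and -0.46 in NBD best PEEP.

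**Figure D5:**
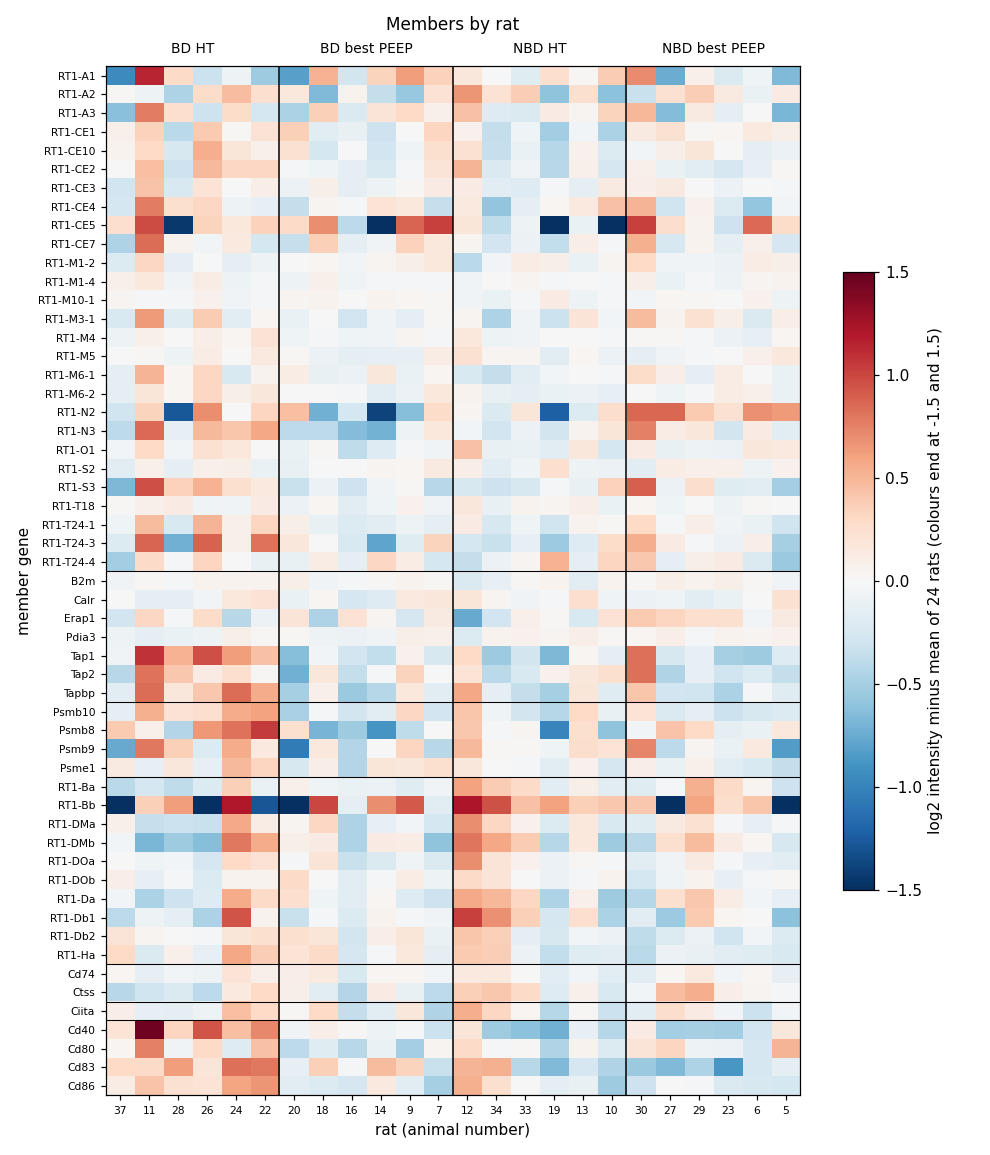
Log2 intensity of each member minus its mean over the 24 rats, by rat (columns, grouped) and gene (rows, in blocks of class). RT1-Bb, RT1-CE5 and RT1-N2 hold the deepest blue cells in single rats of several groups, and the Tap1, Cd40 and Cd86 rows are mostly red in BD HT.

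Other genes of these pathways, taken from pathway lists, were counted in the same comparisons. These counts stand beside 2.85% of all features called higher and 2.82% lower in BD HT over BD best PEEP, and 5.90% higher and 8.50% lower in BD HT over NBD HT, as do the counts of markers below. Of 10 interferon gamma signalling genes, 3 rose in BD HT over BD best PEEP and 0 fell. They were the cytokine Ifng (difference 0.60, adjusted p = 0.00623), the kinase Jak2 (0.72, adjusted p = 0.00727) and the feedback inhibitor Socs1 (1.40, adjusted p = 0.00776). In BD HT over NBD HT 7 rose and 1 fell, led by Jak2 (1.05, adjusted p = 8.51e-05), Ifng (0.63, adjusted p = 0.00100), the transcription factor Irf1 (1.26, adjusted p = 0.00202) and Socs1 (1.26, adjusted p = 0.00580). The one that fell was the receptor chain Ifngr1 (-0.30, adjusted p = 0.0147). Of 16 genes listed for the constitutive proteasome, 5 rose and 0 fell in each of these comparisons. All 16 lay above 0 over BD best PEEP, as did the immunoproteasome members, and 14 lay above 0 over NBD HT. Psma5 differed by 0.49 (adjusted p = 0.00256) over BD best PEEP and by 0.57 (adjusted p = 9.80e-05) over NBD HT. Also called were Psma4, Psma2, Psmb2 and Pomp over BD best PEEP, and Psma2, Psma7, Psma4 and Pomp over NBD HT. The catalytic subunits Psmb5, Psmb6 and Psmb7, which the immunoproteasome replaces, were not called.

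For class II, 0 of 8 endosomal processing genes was called in either comparison. Of 8 genes of the complex that binds class II promoters, the CCAAT factor subunit Nfyb rose over BD best PEEP (0.38, adjusted p = 0.0388). Over NBD HT, Nfyb (0.51, adjusted p = 0.00274) and Rfx5 (0.44, adjusted p = 0.0313) rose and Rfxank fell (-0.47, adjusted p = 0.00192). Of 10 accessory genes of class I loading, 0 was called over BD best PEEP, and over NBD HT 1 fell, the translocon subunit Sec61a1 (-0.37, adjusted p = 0.00111). Of 6 class I-like molecules, Procr, the endothelial protein C receptor, rose in both comparisons (0.56 and 0.52, adjusted p = 0.0247 and 0.0189).

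Among 8 other ligands of T cells, 0 was called over BD best PEEP, and Cd274, the inhibitory ligand PD-L1, rose over NBD HT by 1.56 (adjusted p = 0.00291), as did Pdcd1lg2 by 0.20 (adjusted p = 0.0492). Of 9 costimulatory receptors, Tnfrsf9 (0.96, adjusted p = 0.00296) and Tnfrsf4 (0.41, adjusted p = 0.0373) rose over BD best PEEP, and Tnfrsf9 (0.65, adjusted p = 0.0116) and Cd27 (0.34, adjusted p = 0.0264) over NBD HT. All 8 of these ligands and all 9 receptors lay above 0 over BD best PEEP, as did the costimulatory members. Over NBD HT, 7 of the ligands and 8 of the receptors did. In NBD rats and under best PEEP 0 genes of the pathway lists were called.

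Markers of immune and lung cells were set beside these results. Over BD best PEEP, 0 of 11 B cell, 0 of 13 T cell, 0 of 9 NK cell and 0 of 9 monocyte and macrophage markers were called in BD HT, although 12 of the 13 T cell markers lay above 0, and 2 of 11 dendritic cell markers rose, the chemokines Ccl22 and Ccl17. Mean dendritic cell marker levels ran from 9.39 to 9.82 (median 9.52) in BD HT and from 9.15 to 9.47 (median 9.28) in BD best PEEP, with overlap. Of 9 markers each, 2 of alveolar type I and 2 of alveolar type II cells fell. Mean alveolar type II marker levels ran from 12.48 to 12.81 in BD HT and from 12.65 to 12.97 in BD best PEEP.

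Over NBD HT, 4 of 9 NK cell markers rose (Gzmb, Prf1, Klrk1 and Gzma), with mean levels of 9.75 to 10.61 in BD HT and 9.40 to 9.73 in NBD HT, without overlap. Called higher as well were 1 of 11 B cell markers (Ms4a1) and 1 of 13 T cell markers (Cd8a). So were 1 of 11 dendritic cell markers (Ccl22) and 2 of 11 neutrophil markers. Of these lists, 2 B cell, 1 T cell, 4 dendritic cell and 0 neutrophil markers lay below 0. Of 9 monocyte and macrophage markers 2 rose and 1 fell, of 8 alveolar macrophage markers 2 rose and 2 fell, and 4 alveolar type I, 3 alveolar type II and 1 of 8 endothelial markers fell. The part of these markers in the differences of the members was not tested.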

How the data were processed

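Right lung RNA of 24 rats was measured on Affymetrix rat genome arrays, 1 per rat. The values deposited by the authors are log2 intensities. Background correction and probe summarisation, not given in the sources used here, were kept as they were. Every array held the same set of values in another order, which is the result of quantile normalization. Groups came from the sample labels, and features were named from the platform annotation, which can be old. Gene numbers of all 55 members matched the current gene table with the same symbol.

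Group means were fitted with limma 3.58.1 in R 4.3.3 (lmFit and eBayes, 20 residual degrees of freedom), with 5 contrasts, two-sided, adjusted by the Benjamini-Hochberg method over 19239 features. The study's methods name another model and Holm's correction, used as an alternative. The fit was tested on simulated data. Permutation tests of relations used 100000 resamples. The number of rats limits the precision.

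The members and lists were chosen with earlier results of these data known. Members given in full were the core genes of each class, the up to 6 called members with the smallest p of each contrast, and members called against the rest. Promoter sequences came from RefSeq. RT1-Bb, RT1-N2, RT1-CE5, RT1-A1 and RT1-A3 were added after their values were seen. Alternatives were cyclic loess, leaving out the dimmest 40% of features, fitting only the 12 arrays compared, trend with robust, array weights, Holm's correction, a term for animal number, and fits without each rat, without each of the 15 pairs of BD HT rats, and without rats 12 and 16 together. The labels give each sample a replicate number that no other sample has. This number was read as an animal number, and each sample as a separate rat.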

Additional observations from a re-analysis of the deposited data

Results flagged for a closer look

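For the 15 members named by rule, 1 rat lay far from the others in 3 of the 60 groups of 6 rats examined, and chance flags about 1 in 20 groups. In NBD best PEEP, rat 30 had the highest Tap1 value, 12.01, against 11.06 in the next rat, and the highest Tap2 value, 10.91, against 9.96 in the next rat. In NBD HT, rat 12 had the highest RT1-M6-2 value, 8.79, against 8.65 in the next rat. A further 2 groups belong to RT1-N2 and RT1-CE5, which were among the 5 members described because rats lay apart or were low in them, so that such flags follow from the choice. In NBD HT, rat 19 had the lowest RT1-N2 value, 8.83, against 9.84 in the next rat, and in BD HT, rat 28 had the lowest RT1-CE5 value, 9.51, against 11.12 in the next rat. Differences between the ventilation effects in BD and NBD passed the test for 0 members.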

How the results depend on the processing

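No called difference of a named member changed sign in 376 refits under the alternatives, and in 107 of them it no longer passed the test. Of 2684 refits of uncalled differences, 197 had the other sign and 31 passed the test. For BD HT against BD best PEEP, where 4 members were called, 7 were called with cyclic loess or without the dimmest features, 8 with animal number as a covariate, 3 with array weights or only the 12 arrays compared (Tapbp was lost) and 0 with Holm's correction. All these calls were higher, and the share of all features called higher was 2.85% as fitted, 3.68% with cyclic loess, 4.57% without the dimmest features and 5.33% with animal number, beside 7.27%, 12.7%, 14.9% and 14.5% of the members. Animal numbers ran from 7 to 20 in BD best PEEP, and from 22 to 37 in BD HT apart from rat 11. The fit with animal number can therefore hardly tell this number from ventilation in BD. Leaving out single rats gave 1 to 7, with 1 (1.82%) without BD HT rat 11 and 2 (3.64%) without BD HT rat 26. There were 7 (12.7%) without BD HT rat 37 or NBD HT rat 12. The shares of all features called higher in these fits were 1.98%, 2.04%, 3.45% and 3.86%. Leaving out pairs of BD HT rats gave 0 to 10, beside 0.764% to 3.33% of all features called higher. The 10 (18.2%) came without rats 37 and 28, beside 2.78%. For BD HT against NBD HT, where 4 were called, 7 were called with cyclic loess or array weights, 2 with only the 12 arrays compared (Cd40 and Tap1), 0 with Holm's correction and 9 without rats 12 and 16 together. The share of all features called higher was 5.90% as fitted, 8.005% with cyclic loess, 8.11% with array weights and 4.05% with only the 12 arrays, beside 7.27%, 12.7%, 12.7% and 3.64% of the members. Leaving out single rats gave 2 to 10, with 10 (18.2%) without NBD HT rat 12 and 7 (12.7%) without BD HT rat 37 or 28. There were 2 (3.64%) without NBD HT rat 33, 19, 13 or 10 or BD HT rat 22. In these single-rat fits 4.22% to 6.67% of all features were called higher. Pairs gave 1 to 13, beside 2.83% to 6.14%, with 13 (23.6%) without rats 37 and 28, beside 5.26%. The lower calls were of class II, RT1-Ba without BD HT rat 24 and without rats 24 and 22, and RT1-Bb without rats 28 and 24. Under best PEEP array weights gave 1 call, Cd83, and for the interaction animal number gave 1, Cd40, and pairs gave 0 to 1. In NBD rats 0 members were called in every refit. The cause of these changes was not tested. No paired analysis was possible because the groups share no replicate numbers. Signal over background is not known for these values.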
